A study of Mus musculus with 50 samples.

Results

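The regions described here are stretches of trimethylated histone H3 lysine 27 (H3K27me3) in mouse embryonic stem cells that lay outside the listed SUZ12 peaks of wild-type (WT) cells and were still listed in Ezh2 KO cells. They were chosen from 3 deposited peak lists: a WT H3K27me3 peak was a member when it overlapped no WT SUZ12 peak and overlapped an Ezh2 KO H3K27me3 peak by at least 1 bp. Of 16754 WT H3K27me3 peaks, 5180 overlapped a WT SUZ12 peak and 11574 did not. Of these 11574, 3825 overlapped an Ezh2 KO peak and are the members (33.0%), while 7749 did not and are called lost regions below. On SUZ12, 4583 peaks were kept in Ezh2 KO (88.5%), and of all WT H3K27me3 peaks 50.2% were. Because WT and Ezh2 KO H3K27me3 and WT SUZ12 chose the members, their values in these 3 lists are a description and support nothing.

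The series holds 50 samples, and 28 lists of ChIP-seq or ATAC-seq regions and 8 RNA-seq libraries were used here. Each list came from 1 library, so no difference between lines in a list could be tested, and intervals on shares of regions are Wilson 95% intervals that cover counting error only. The depth behind the lists is unknown. RNA-seq had 2 libraries per line, of 3604123 to 5181553 reads.

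All lines derive from E14TG2a mouse embryonic stem cells grown in 2i/LIF medium with serum. WT cells carried no edit. Ezh2 KO and Ezh1/2 dKO cells are CRISPR/Cas9 clones from which the whole gene or both genes were deleted. Ezh2 Y726D and Ezh2 R685C cells carry a point mutation of Ezh2 edited into Ezh1 KO cells, so mutant EZH2 is their only EZH enzyme. Ezh1/2 dKO cells transfected with HA-tagged human EZH1 were profiled with an HA antibody, and Ezh1/2 dKO cells without the tag served as the control for that antibody. Each edited line is a clone, so line and clone cannot be told apart.

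SUZ12 is a core subunit of Polycomb repressive complex 2 (PRC2), whose catalytic subunit is EZH2 or its paralog EZH1. The complex adds methyl groups to lysine 27 of histone H3. In embryonic stem cells it is concentrated at CpG-rich promoters of developmental genes, from which H3K27me3 can extend over the flanking chromatin. H3K27me1 and H3K27me2 are the lower methylation states of the same residue, and acetylation (H3K27ac) occupies it at active promoters and enhancers.

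The sequence around the summit of 5 members, of a SUZ12-bound neighbour and of a lost region is given first, because base composition accompanied several of the shares below. Each window holds 300 bases of the plus strand of mm9 (NCBIM37), read 5′ to 3′, and capitals mark CpG dinucleotides. Regions are named by the nearest gene of GENCODE vM1, which can be far away. Fgd2 encodes a Cdc42 exchange factor, and the member 19754 bp from it, between genes, was the widest within 1 kb of a SUZ12 peak. The window of that member held 2 CpGs, whereas the window of the kept SUZ12-bound peak beside it held 7. Nkx1-1, a homeobox gene, lies 24770 bp from the widest member, whose window held 4 CpGs. The member 3084 bp from Gm10146, between genes, lay under the Ezh2 KO peak with the highest Ezh2 KO H3K27me3 score among those over 20 kb from SUZ12, and its window held 9. The domain with the largest number of distant members lay between genes, far from its nearest gene Tmem132c, and the window of a member 490774 bp from that gene held 2. Met, the hepatocyte growth factor receptor gene, was higher in the Ezh1/2 dKO and Ezh2 Y726D lines, and the window of the member 302 bp from it held 12. The lost region 2988 bp from Oas1f had a WT −log10 p of 32.7, and its window held 2.
Fgd2 member, chr17:29541298-29541597: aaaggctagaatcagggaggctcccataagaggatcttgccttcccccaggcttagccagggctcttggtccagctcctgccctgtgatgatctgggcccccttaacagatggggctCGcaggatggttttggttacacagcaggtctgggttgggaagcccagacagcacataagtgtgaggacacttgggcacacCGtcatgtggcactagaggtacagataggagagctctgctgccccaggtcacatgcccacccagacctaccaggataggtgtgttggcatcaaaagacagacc
Fgd2 kept on SUZ12, chr17:29535538-29535837: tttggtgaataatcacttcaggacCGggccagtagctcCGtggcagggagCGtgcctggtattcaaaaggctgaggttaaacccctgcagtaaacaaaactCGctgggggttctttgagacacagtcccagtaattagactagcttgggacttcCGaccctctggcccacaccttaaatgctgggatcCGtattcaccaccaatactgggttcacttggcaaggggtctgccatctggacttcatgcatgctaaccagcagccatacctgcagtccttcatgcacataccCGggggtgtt
Nkx1-1 member, chr5:33802267-33802566: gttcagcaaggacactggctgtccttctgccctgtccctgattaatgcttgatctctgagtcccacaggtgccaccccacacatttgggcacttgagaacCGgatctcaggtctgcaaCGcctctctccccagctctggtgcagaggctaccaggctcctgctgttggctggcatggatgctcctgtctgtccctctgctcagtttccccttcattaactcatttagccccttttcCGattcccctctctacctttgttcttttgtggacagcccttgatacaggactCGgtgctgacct
Gm10146 member, chr10:77850984-77851283: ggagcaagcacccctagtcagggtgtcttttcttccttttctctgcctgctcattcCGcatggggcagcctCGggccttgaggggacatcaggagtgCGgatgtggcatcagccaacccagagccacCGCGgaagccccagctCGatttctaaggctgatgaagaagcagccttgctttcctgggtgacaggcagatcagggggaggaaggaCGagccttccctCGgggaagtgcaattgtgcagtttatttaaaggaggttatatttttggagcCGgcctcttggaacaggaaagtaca
Tmem132c member, chr5:127231064-127231363: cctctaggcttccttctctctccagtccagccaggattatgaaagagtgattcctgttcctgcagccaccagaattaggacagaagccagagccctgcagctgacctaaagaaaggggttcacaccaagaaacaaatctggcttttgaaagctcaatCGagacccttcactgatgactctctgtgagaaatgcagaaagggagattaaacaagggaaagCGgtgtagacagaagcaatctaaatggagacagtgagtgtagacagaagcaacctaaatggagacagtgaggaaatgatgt
Met member, chr6:17413186-17413485: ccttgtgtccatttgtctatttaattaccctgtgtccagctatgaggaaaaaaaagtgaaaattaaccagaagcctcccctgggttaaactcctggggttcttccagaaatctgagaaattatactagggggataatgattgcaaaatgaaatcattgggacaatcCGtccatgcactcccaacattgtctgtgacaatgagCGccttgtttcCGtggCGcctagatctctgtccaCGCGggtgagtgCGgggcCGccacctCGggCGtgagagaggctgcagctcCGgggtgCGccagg
Oas1f lost region, chr5:121293825-121294124: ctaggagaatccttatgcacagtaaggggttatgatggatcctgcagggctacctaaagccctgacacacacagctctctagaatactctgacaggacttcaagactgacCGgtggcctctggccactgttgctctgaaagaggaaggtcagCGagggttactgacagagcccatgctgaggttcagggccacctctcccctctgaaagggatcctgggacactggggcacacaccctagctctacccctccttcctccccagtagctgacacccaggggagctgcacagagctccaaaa

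The ratio of observed to expected CpG showed how the windows differed from a CpG island. It was 0.0842 in the Fgd2 member and 0.337 in its SUZ12-bound neighbour. In the Nkx1-1 window it was 0.188, in the Gm10146 window 0.397 and in the Tmem132c window 0.125. The Met window, at 0.616, was the CpG-richest of those printed, and the lost Oas1f window was at 0.0856.

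Over all members, the median width was 647 bp (quartiles 412 to 1019 bp) and the median −log10 p of the WT H3K27me3 peak was 14.1 (11.8 to 17.2). Members therefore sat close to the lowest score in the WT list, 10, as did all WT H3K27me3 peaks, with a median of 13.2 (11.2 to 17.3). The Ezh2 KO peak over a member had a median −log10 p of 41.7, with quartiles of 17.8 and 154 and a highest value of 537. That peak was also wide, with a median of 1828 bp. In the same lists, lost regions had a median width of 398 bp and a median WT −log10 p of 11.8, and kept SUZ12-bound peaks had medians of 1256 bp and 18.4.

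The members were CpG-poor around their summits. Within 300 bp around the summit, their median GC content was 50.7%, their median CpG number was 4 and their median observed to expected CpG ratio was 0.222. Lost regions had a ratio of 0.202 and kept SUZ12-bound peaks a ratio of 0.486. A GC content of at least 50% together with a ratio of at least 0.6, as in a CpG island, was met by 3.95% of members, 2.06% of lost regions and 33.1% of kept SUZ12-bound peaks. In 4.94% of members that window held no CpG.

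Members were split by whether the Ezh2 KO peak over them also spanned a WT SUZ12 peak. A single Ezh2 KO peak could cover several members: 3152 Ezh2 KO peaks covered the 3825 members, up to 20 under the same peak, so neighbouring members are not independent. For 1547 members (40.4%) the Ezh2 KO peak also spanned a WT SUZ12 peak, and these edge members lay a median of 428 bp from SUZ12 under Ezh2 KO peaks with a median width of 3908 bp and a median −log10 p of 205. The other 2278 members lay under separate Ezh2 KO peaks, a median of 17780 bp from SUZ12, and the medians of those peaks were 1026 bp and 21.7. Separate members were not all distant, since the lower quartile of their distance to SUZ12 was 2195 bp. A TSS was within 5 kb of 78.7% of edge members and 45.8% of separate members.

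At the threshold of the rule, the smallest overlap of a member with an Ezh2 KO peak was 1 bp, and 76 members were covered over less than 10% of their length. In contrast, 1739 members (45.5%) were covered in full. Just outside the rule, 172 lost regions lay within 100 bp of an Ezh2 KO peak. On the SUZ12 side, 176 members lay within 100 bp of a WT SUZ12 peak.

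Distance to SUZ12 ordered the kept share only near the peak. Within 1 kb of a SUZ12 peak, 1569 of 2735 regions outside SUZ12 were kept, or 57.4% (55.5 to 59.2%). From 1 to 5 kb, 26.6% were kept, and from 5 to 20 kb and from 20 to 100 kb, 24.4% and 21.4%. Beyond 100 kb the share was 28.6% (671 of 2348, 26.8 to 30.4%), above the share at 20 to 100 kb. Of the members nearest to SUZ12, 1223 were edge members, against 315 at 1 to 5 kb, 9 at 5 to 20 kb and 0 farther out. Hence 61.0% of members were within 5 kb of a WT SUZ12 peak, and 17.5% were over 100 kb away.

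**Figure D1:**
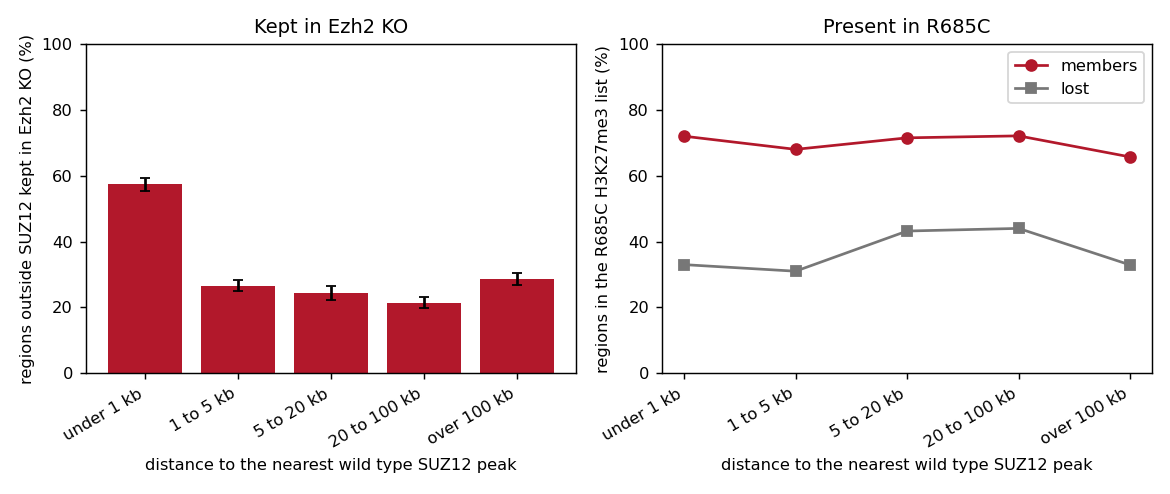
Bars give the percentage of WT H3K27me3 peaks outside SUZ12 that were kept in Ezh2 KO, by distance to the nearest WT SUZ12 peak in kb, with Wilson 95% intervals; lines give the percentage of members and of lost regions listed in Ezh2 R685C H3K27me3. The kept share fell from 57.4% within 1 kb to 21.4% at 20 to 100 kb and was 28.6% beyond 100 kb, while members stayed above lost regions in R685C in each of the 5 distance bins.

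Counted over all 3825, members lay near genes more often than lost regions did, whereas separate members lay near genes less often. A TSS was within 5 kb of 59.1% of members (57.5 to 60.7%), 50.4% of lost regions and 83.2% of kept SUZ12-bound peaks, against 62.1% of all WT H3K27me3 peaks. For the 2278 separate members the share was 45.8% (43.7 to 47.8%), so the higher share of all members came from edge members. Lost regions lie under no Ezh2 KO peak and cannot be split in this way. Only 5.80% of members contained a TSS, compared with 29.6% of kept SUZ12-bound peaks. The summit of 52.3% of members was inside a gene, and 24.7% of members were between genes with no TSS within 5 kb.

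The first list outside the rule was H3K27me3 in Ezh2 R685C cells. Of the members, 2680 overlapped a peak of that list, or 70.1% (68.6 to 71.5%), against 62.2% of all WT H3K27me3 peaks. Among lost regions the share was 36.3% (35.2 to 37.3%), and among kept SUZ12-bound peaks it was 98.2%. The intervals of members and lost regions did not overlap, but they count neighbouring regions as independent, which they are not, and cover no spread between libraries. Part of these R685C peaks crossed SUZ12: 48.0% of members overlapped an R685C peak that touched no WT SUZ12 peak. With only the summit base of each region counted, the shares were 56.1% for members and 27.8% for lost regions.

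The gap held within each class of peak height, width and CpG number. Members were wider and stronger in WT than lost regions, and in both classes the R685C share was higher where peaks were wider or stronger. In the lowest quintile of WT −log10 p, 61.8% of members and 27.7% of lost regions were listed in R685C, and in the highest quintile 79.5% and 52.3%. By width, members went from 52.5% in the narrowest quintile to 82.2% in the widest, and lost regions from 25.1% to 59.1%. With 0 to 2 CpGs in the 300 bp around the summit, 56.5% of 1128 members and 21.5% of 2364 lost regions were listed. With over 10 CpGs, the values were 98.1% of 363 members and 80.8% of 505 lost regions. Beyond 100 kb from SUZ12, 65.7% of members and 32.9% of lost regions were listed, so the gap was also present there.

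**Figure D2:**
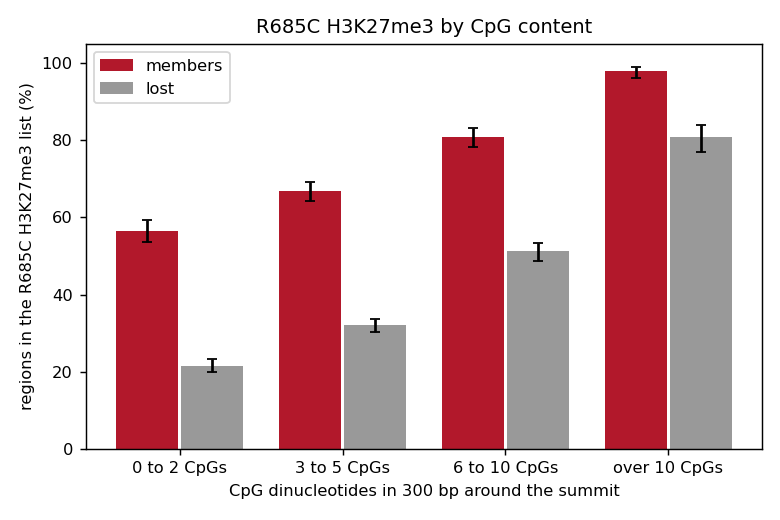
Bars give the percentage of members and of lost regions that overlapped an Ezh2 R685C H3K27me3 peak, in bins of the number of CpGs in the 300 bp around the summit, with Wilson 95% intervals; the bins were chosen after the values were seen. Members went from 56.5% with 0 to 2 CpGs to 98.1% with over 10, and lost regions from 21.5% to 80.8%.

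SUZ12 itself was seldom listed over the members in the mutant lines, apart from R685C. All WT H3K27me3 peaks include the 5180 on WT SUZ12 that the rule left out of members and lost regions. Shares of members below all WT peaks in the SUZ12 and HA-EZH1 lists were therefore partly set by the rule. In Ezh2 KO cells, 3 members overlapped a SUZ12 peak, or 0.0784% (0.0267 to 0.230%), against 8.87% of all WT H3K27me3 peaks. They lay in or beside Ptprs, a receptor tyrosine phosphatase, Tcfap2c, the transcription factor AP-2γ, and Ina, a neuronal intermediate filament, at 65, 183 and 406 bp from a WT SUZ12 peak. Among lost regions 0 overlapped an Ezh2 KO SUZ12 peak, and among kept SUZ12-bound peaks the share was 32.4%. In Ezh1/2 dKO cells, 0 of 3825 members and 5.91% of kept SUZ12-bound peaks overlapped a SUZ12 peak, against 1.64% of all WT H3K27me3 peaks, but that list held only 317 peaks.

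In Ezh2 R685C cells, 377 members overlapped a SUZ12 peak, or 9.86% (8.95 to 10.8%), against 21.8% of all WT H3K27me3 peaks. Among lost regions, 15 did (0.194%). Edge members reached 17.5% and separate members 4.65%. Beyond 100 kb from SUZ12, 26 members were in the list, and 8 of them lay in the Pcdhb cluster described below.

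In Ezh2 Y726D cells, 71 members overlapped a SUZ12 peak (1.86%), against 15.5% of all WT H3K27me3 peaks and 22 lost regions (0.284%). Of these 71, 23 lay over 100 kb from a WT SUZ12 peak, or 3.43% of the members at that distance.

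HA-tagged EZH1 was listed at few members. Of the 3825, 67 overlapped an HA-EZH1 peak, or 1.75% (1.38 to 2.22%), against 19.1% of all WT H3K27me3 peaks, 0.168% of lost regions and 66.6% of kept SUZ12-bound peaks. In the control without the tag, 10 members were listed (0.261%), against 0.364% of all WT peaks. Without HA-EZH1 peaks that overlapped a control peak, 61 members were listed (1.59%). With a p of at most 1e-20 in the lists that give one, the rule left 619 regions and the HA-EZH1 share was 18.3% (113 regions), but 94 of the 113 lay on a SUZ12 peak of the full WT list. Of the 67 members, 43 lay within 1 kb of SUZ12 and 29 were also in the R685C SUZ12 list. Over 20 kb from SUZ12, 14 were listed, among them members near Cobll1, Ptprs and Rap1gap2, the last a GTPase-activating protein for Rap1, and 2 each near Gm10146 and Tmem121.

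The height of the Ezh2 KO peak, from a list that chose the members, went with the R685C SUZ12 share. Edge members had higher Ezh2 KO peaks than separate members (median −log10 p of 205 against 21.7) and, as given above, a higher R685C SUZ12 share. Whether the order held within edge or within separate members was not tested. From the lowest to the highest quintile of Ezh2 KO −log10 p, the members listed in R685C SUZ12 were 0.784%, 3.39%, 7.29%, 11.3% and 26.5%. For HA-EZH1 the lowest quintile was at 0.523% and the highest at 3.14%. R685C H3K27me3 went from 61.0% to 75.9% over the same quintiles. The share in Y726D SUZ12 had no such order, with 1.44% in the lowest quintile, 2.89% in the next to highest and 0.654% in the highest.

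**Figure D3:**
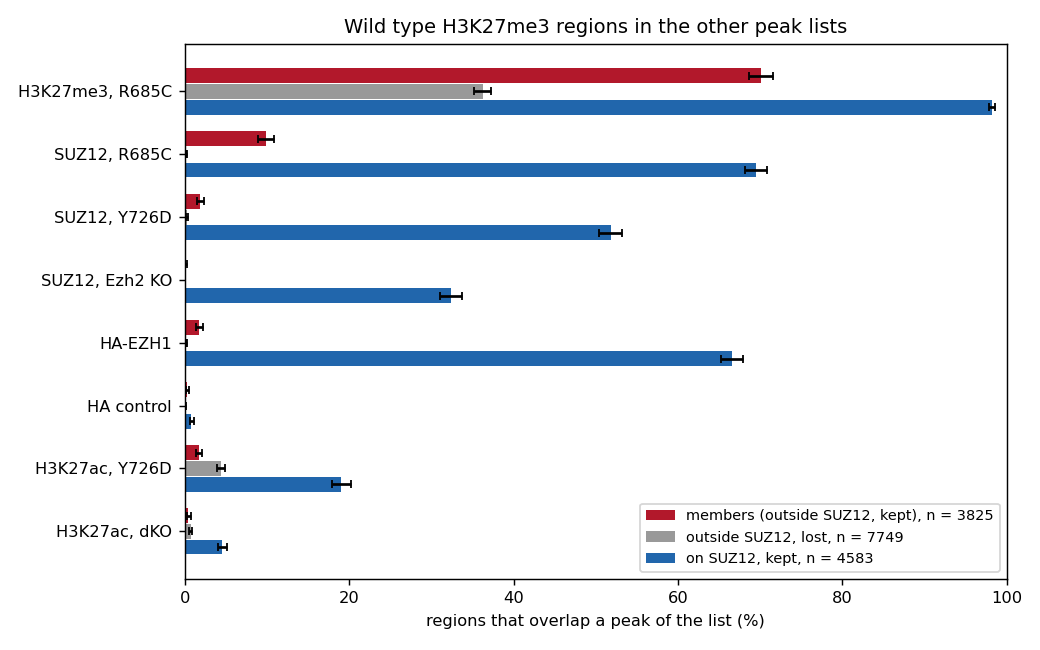
Horizontal bars give the percentage of members (3825), lost regions (7749) and kept SUZ12-bound peaks (4583) that overlapped a peak of each of 8 lists outside the rule, with Wilson 95% intervals. For members the R685C H3K27me3 list stood at 70.1% and the R685C SUZ12 list at 9.86%, the other lists were under 2%, and kept SUZ12-bound peaks were above members in each list.

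H3K27me3 at the members was almost absent from the lists of the other EZH mutants. In Ezh1/2 dKO, 1 member was listed (0.0261%, against 0.143% of all WT H3K27me3 peaks), near Mid1, a ubiquitin ligase gene on the X chromosome. In Ezh2 Y726D, 3 members were listed (0.0784%, against 0.0895% of all), near Mid1, the imprinted gene Grb10 and Oas1b. These lists held 53 and 3862 peaks in all.

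H3K27ac was listed at fewer members than lost regions in each of the 4 mutant lines. No WT H3K27ac list was used here, so acetylation gained in a mutant and acetylation already present in WT cannot be told apart. In Ezh2 Y726D, 65 members overlapped an H3K27ac peak, or 1.70% (1.34 to 2.16%), against 9.41% of all WT H3K27me3 peaks. Lost regions stood at 4.37% (3.94 to 4.85%) and kept SUZ12-bound peaks at 19%. The members acetylated in Ezh2 Y726D and over 100 kb from SUZ12 numbered 11, among them regions at Met, Rgs16 and Rest and a region 169861 bp from its nearest gene, Sox9. Rest and Sox9 encode transcription factors of neuronal gene silencing and cartilage.

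In the Ezh1/2 dKO line, 17 members overlapped an H3K27ac peak (0.444%), against 2.41% of all WT H3K27me3 peaks and 0.710% of lost regions. In R685C, 8 members were listed (0.209%, against 1.44% of all) and in Ezh2 KO 2 members (0.0523%, against 0.680% of all), near E030030I06Rik and Tnfsf11. At least 1 of the 4 lists held 1.99% of members, 4.81% of lost regions and 9.96% of all WT H3K27me3 peaks. The H3K27ac lists differed in length, from 17618 peaks in Ezh1/2 dKO to 41185 in R685C.

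The broad lists of H3K27me2 and H3K27me1, called at a p of at most 0.1, were compared over the members. The paper reports that the dKO and Y726D lines lost every H3K27 methylation state. In the lists of these lines, regions over members had median −log10 p of 1.36 to 1.41. With a p of at most 1e-5, they covered 0% of the members' bases for H3K27me2 and at most 0.0696% for H3K27me1. Their coverage at the loose threshold therefore does not by itself show the mark, and whether it is background was not tested. In the H3K27me2 lists, 19 chromosomes were common to the 4 lines and held 3655 members. Regions of the WT list covered 1.31% of the members' bases, compared with 7.12% of lost regions, 0.410% of kept SUZ12-bound peaks and 14.2% of those chromosomes. In Ezh2 KO, regions of the list covered 100% of the members' bases, compared with 97.8% of lost regions and 16.2% of the chromosomes. Whether that list was called with the same settings as the other lists is not given in the sources used here, so a difference in calling and a difference between the lines cannot be told apart. The Ezh1/2 dKO list covered 25.4% of members and 24.8% of the chromosomes, and the Ezh2 Y726D list 32.7% and 24.3%.

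The Ezh2 KO H3K27me2 list stood apart from the others in kind. Its regions over members had a median −log10 p of 5.93 and those over lost regions 4.21, whereas regions over members in the other 3 lists had medians of 1.36 to 1.40. Counting only regions with a p of at most 1e-5, Ezh2 KO covered 74.2% of the members' bases, 36.4% of lost regions, 76.6% of kept SUZ12-bound peaks and 1.19% of the chromosomes. In this setting the other 3 lists covered at most 0.00273% of the chromosomes.

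For H3K27me1, 9 chromosomes with 2056 members were common to the 4 lists. WT regions covered 0.150% of the members' bases, against 14.5% of these chromosomes. Ezh2 KO regions covered 57.6% of members, 77.3% of lost regions, 24.8% of kept SUZ12-bound peaks and 18.8% of the chromosomes. Members thus lay between both other classes in Ezh2 KO. The Ezh1/2 dKO list covered 24.8% of members and 11% of the chromosomes, and the Ezh2 Y726D list 39.7% and 12.6%. With a p of at most 1e-5, coverage of members in H3K27me1 was near 0 in each list.

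**Figure D4:**
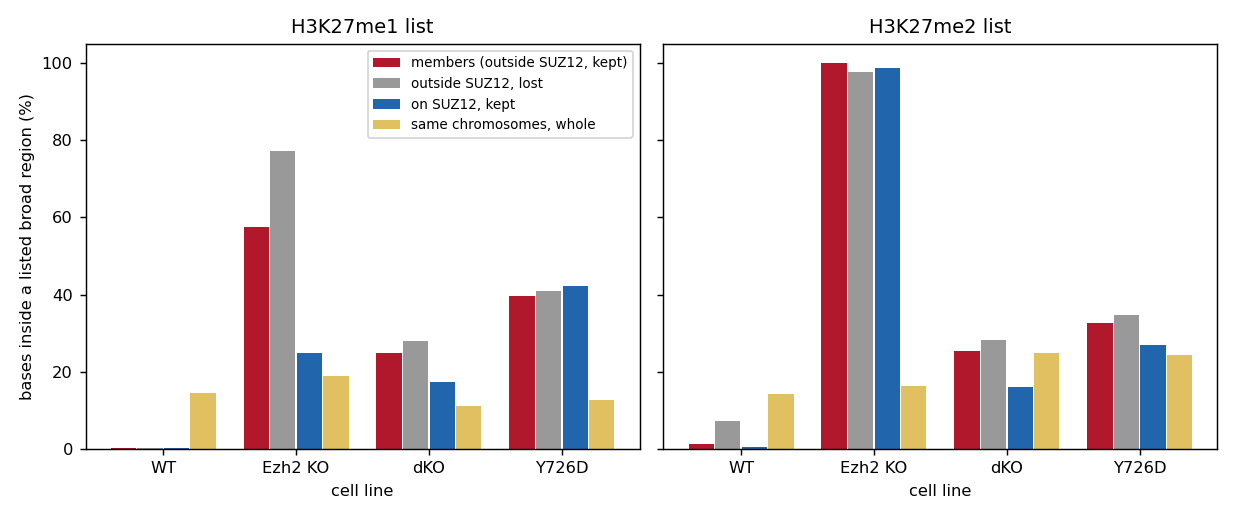
Bars give the percentage of bases inside listed broad regions of H3K27me1 and H3K27me2 (p of at most 0.1) by line, WT first and then the 3 mutant lines, for members, lost regions, kept SUZ12-bound peaks and the whole of the same chromosomes. Members were at 1.31% for H3K27me2 and 0.150% for H3K27me1 in WT, and at 100% and 57.6% in Ezh2 KO.

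ATAC-seq regions, called at the same loose threshold, overlapped 70.3% of members in WT, against 74.8% of all WT H3K27me3 peaks. In Ezh2 KO the share was 66.5% (72.6% of all), in Ezh1/2 dKO 73.4% (77.0% of all) and in Ezh2 Y726D 72.5% (75.8% of all). Lost regions were at 64.0%, 61.3%, 67.3% and 64.5%. With a p of at most 1e-5, 8 members remained in the Ezh2 KO list (0.209%) and 0 in the other 3.

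The strongest Ezh2 KO peak over distant members lay near Gm10146. Each member took the score of the Ezh2 KO peak over it, so members under the same peak tied and their grouping was set by this ranking. The 5 members with the highest Ezh2 KO −log10 p among those over 20 kb from SUZ12 all lay under the same Ezh2 KO peak of 6513 bp, with a −log10 p of 281. The widest of them, chr10:77850437-77852974, was 2538 bp long, had a WT −log10 p of 31.5 and lay 35750 bp from SUZ12. It overlapped an R685C H3K27me3 peak with a −log10 p of 479 and a Y726D SUZ12 peak. Its neighbour chr10:77855120-77855693 was in the HA-EZH1 list, and all 5 were in R685C H3K27me3. Below that peak, the strongest separate Ezh2 KO peaks over members at this distance, named after their values were seen, lay nearest to Slc25a4, Neto2, Gm20481, Tmem132c and Pax3, with −log10 p of 169 to 240. Pax3 is a homeobox transcription factor of neural crest and muscle precursors, and its member was exonic.

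The widest members were also strong. The member nearest to Nkx1-1, chr5:33801396-33808396, was 7001 bp long, with a −log10 p of 37.0 in WT, 93.3 in Ezh2 KO and 248 in R685C, and lay 20689 bp from SUZ12. The Fgd2 member, chr17:29536360-29542296, was 5937 bp long, with 32.0 in WT, 157 in Ezh2 KO and 316 in R685C, and lay 633 bp from SUZ12. An exonic member of Lmx1b, a LIM homeobox gene, at chr2:33423027-33428834, was 5808 bp long, with 26.5, 54.2 and 176. Of these 3, only the Fgd2 member was in the R685C SUZ12 list.

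Members over 100 kb from SUZ12 formed domains. Joined within 10 kb, the 671 members gave 349 domains, of which 223 held 1 member, 104 held 2 to 4 and 22 held 5 or more. The domain with the largest number of members lay between genes, 467196 bp from Tmem132c, a transmembrane protein gene, where 22 members spanned 35972 bp (chr5:127219010-127254981) with 1 lost region between them. Ezh2 KO peaks covered 98.0% of the bases of these members and R685C peaks 25.3%, and 6 of the 22 members were in R685C.

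Domains differed in how far R685C followed Ezh2 KO. In the domain 11646 bp from Fam53a (chr5:33890814-33931353), both lists covered 87.2% of the members' bases, and 20 of 21 members were in R685C. At Pappa, the gene of a metalloprotease that cleaves IGF-binding proteins (chr4:64896452-64940274), Ezh2 KO covered 90.4% of the members' bases and R685C 13.7%, with 3 of 19 members listed. Between these lay Thbs2, the thrombospondin 2 gene (chr17:14813968-14841065), with 95.1% and 40.2%, and Kcnd3, a potassium channel gene (chr3:105359651-105378822), with 97.1% and 51.9%. At Rbms3, 0 of 7 members were in R685C. None of the 22 domains with 5 or more members held an HA-EZH1 peak or an Ezh2 KO SUZ12 peak on a member, lists that held 1.75% and 0.0784% of all members. The 3 members in the Ezh2 KO SUZ12 list lay at most 406 bp from WT SUZ12, so distance alone fixed that result. Of the 67 members in the HA-EZH1 list, 43 lay within 1 kb of SUZ12. Over 20 kb away, 14 of 1115 members were listed. These domains held 203 members, too few at so low a share for 0 to set them apart. Whether these domains differ from other distant members was not tested.

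The Pcdhb cluster, a row of neuronal adhesion genes (chr18:37419652-37686073), held 24 WT H3K27me3 peaks and no WT SUZ12 peak on them. Of the 24, 15 were members and 9 were lost. All 15 members were in R685C H3K27me3, and 8 were in R685C SUZ12. Of the 9 lost regions, 3 were in R685C H3K27me3 and 0 in R685C SUZ12. The members lay 120032 to 294153 bp from SUZ12, had Ezh2 KO −log10 p of 10.7 to 82.7, and 0 of them were in the HA-EZH1, Y726D SUZ12 or H3K27ac lists.

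The 15 loci that the study displays were mostly SUZ12-bound. Within 10 kb of them lay 137 WT H3K27me3 peaks, of which 86 overlapped SUZ12, 33 were members and 18 were lost. Of the 33 members, 28 were edge members and the farthest was 7339 bp from SUZ12. In R685C, 25 were listed for H3K27me3 and 14 for SUZ12, and 0 were in HA-EZH1. Fgfr3, a fibroblast growth factor receptor gene, had 5 members and 3 lost regions around 1 SUZ12-bound peak. Around Wnt5a, a Wnt ligand gene, 3 members stood beside 6 lost regions, and around the homeobox genes Hoxd9 and Hoxb7 4 members each stood beside 0 lost regions.

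Expression was measured for genes with a member within 5 kb of a TSS and no SUZ12 peak there. There were 291 such genes, of which 157 passed the minimum mean of 5 normalised counts. Since a gene can pass through the line in which it is high, counts over the 157 are a description. As a check of the labels, Ezh2 stood at 598 and 546 normalised counts in WT, 1.05 and 0.968 in Ezh2 KO, 0.824 and 1.78 in Ezh1/2 dKO, and 422 and 613 in Ezh2 Y726D. Ezh1 was at 227 and 377 in WT, 14 and 20.4 in dKO and 24.1 and 15.7 in Y726D. Nothing in the labels says that the 2 libraries of a line came from separate cultures, so p-values measure the spread between these libraries, which may be technical. In such bulk samples a change in few cells and a change in RNA per cell cannot be told apart.

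In Ezh2 KO, 0 genes of the members were called higher and 1 lower (background 0.0937% higher and 0.310% lower over 13872 genes), by limma with a Benjamini-Hochberg adjusted p under 0.1 and a log2 fold change of at least 1. The median log2 fold change was −0.17 over the 157 genes and −0.01 over all genes. Unadjusted p was under 0.05 for 19 genes, DESeq2 called 2 genes in all and edgeR 0. In Ezh1/2 dKO, 14 were higher and 0 lower (8.92% higher, background 3.63% higher and 0.389% lower), with a median of 0.64 against 0.01. In Ezh2 Y726D, 8 were higher (5.10%, background 1.66%) and 2 lower (1.27%, background 1.06%), with a median of 0.32 against −0.01. Without either dKO library the dKO count was 0 and the Y726D count 1, without Y726D replicate 2 the Y726D count was 2, and without either Ezh2 KO library it was 6.

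Genes of lost regions gave neighbouring values. Of 601 tested, 41 were higher in dKO (6.82%, median 0.43) and 20 in Y726D (3.33%, median 0.21). Genes with SUZ12 gave 12.3% and 6.84% of 1944. Whether these groups differ was not tested.

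Among the called genes of the members, Pdlim4, a PDZ and LIM domain protein of the actin cytoskeleton, had the largest log2 fold change in dKO. It was at 14.7 and 8.66 normalised counts in WT, 27.2 and 51.3 in Ezh2 KO, 87.4 and 168 in dKO and 81.1 and 77.2 in Y726D. Both dKO and both Y726D libraries were above both WT libraries. By limma, the log2 fold change was 3.31 (SE 0.46, adjusted p 0.0124) in dKO and 2.70 (SE 0.46, adjusted p 0.0319) in Y726D, and in Ezh2 KO it was 1.64 (adjusted p 0.266). Without dKO replicate 1 or 2, the limma adjusted p in dKO was 0.102 or 0.188, whereas the call in Y726D held without each library in turn.

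Acvrl1, Met and Rgs16 were called in both dKO and Y726D. Acvrl1, a type I receptor of the BMP and TGF-β family, was at 5.34 and 1.93 in WT, 8.36 and 15.5 in Ezh2 KO, 25.6 and 32.9 in dKO and 36.6 and 17.9 in Y726D. The limma log2 fold changes were 2.80 (SE 0.60, adjusted p 0.0473) in dKO and 2.63 (SE 0.60, adjusted p 0.0700) in Y726D. Its member was covered by an Ezh2 KO peak over 0.970% of its length, so this gene stood near the threshold of the rule. Met was at 4 and 4.81 in WT, 3.14 and 2.90 in Ezh2 KO, 45.3 and 29.3 in dKO and 16.9 and 32.4 in Y726D. It changed by 2.80 (SE 0.54, adjusted p 0.0344) in dKO and 2.18 (SE 0.54, adjusted p 0.0874) in Y726D on the log2 scale of limma. Rgs16, a regulator of G-protein signalling, was at 4 and 1.93 in WT and at 20.4 to 28.5 in the 4 dKO and Y726D libraries, while Ezh2 KO had 17.8 and 4.84. Its limma changes were 2.62 (SE 0.63, adjusted p 0.0682) in dKO and 2.85 (SE 0.63, adjusted p 0.0648) in Y726D. Leaving out libraries ended calls of these 3 genes while the fold changes stayed of similar size. Without either dKO library, the log2 fold changes in dKO were 2.49 to 3.10, and the limma adjusted p were 0.139 to 0.369 in both lines. Without WT replicate 2 they were 0.106 to 0.176, apart from Met in dKO, which was still called. In Y726D, the limma adjusted p without 1 Y726D library was 0.175 for Acvrl1 (replicate 1), 0.341 for Met (replicate 2) and 0.123 or 0.167 for Rgs16, without either Ezh2 KO library 0.107 to 0.133 for Acvrl1 and Met, and without WT replicate 1 0.181 for Met. With quantile normalisation the limma adjusted p was 0.104 for Acvrl1 and 0.159 for Rgs16 in dKO and 0.133 for Met in Y726D. With no filter on low values it was 0.111 to 0.130 for the 3 genes in Y726D, and DESeq2 gave 0.130 for Met there.

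Some genes were called in the Ezh1/2 dKO line and not in Y726D, a difference that was not tested. Adcyap1, which encodes the neuropeptide PACAP, was at 4 and 3.85 in WT, 32.1 and 24.0 in dKO and 4.46 and 2.24 in Y726D, with a limma log2 fold change of 2.55 (SE 0.62, adjusted p 0.0684) in dKO. Its member lay 2112311 bp from a WT SUZ12 peak and was in the R685C SUZ12 list. Rassf4, a Ras-association domain protein, was at 14.7 and 5.78 in WT and 70.9 and 57.7 in dKO (2.66, SE 0.64, adjusted p 0.0674 by limma). Slc25a31, the ADP/ATP carrier of germ cells, was at 16.0 and 8.66 in WT and 73.4 and 58.6 in dKO (2.38, SE 0.52, adjusted p 0.0512 by limma). Fam167a was at 4 and 1.93 in WT and 25.6 and 11.5 in dKO (2.25, SE 0.60, adjusted p 0.0896 by limma). In Y726D, Rassf4 was at 18.7 and 41.4, Slc25a31 at 29.4 and 43.6 and Fam167a at 11.6 and 7.83, each above both WT libraries. Their log2 fold changes there were 1.49, 1.52 and 1.46, with limma adjusted p of 0.332, 0.208 and 0.306. Unlike Adcyap1, these genes thus moved in the same direction in Y726D without being called. Without either dKO library the limma adjusted p of these 4 genes were 0.294 to 0.521, and without WT replicate 2 they were 0.113 to 0.159. Without WT replicate 1 that of Adcyap1 was 0.130, and without either Ezh2 KO library that of Fam167a was 0.131. Quantile normalisation gave 0.111 to 0.216 for the 4 genes by limma, no filter on low values 0.102 for Rassf4 and 0.110 for Fam167a, and DESeq2 0.108 for Adcyap1 and 0.187 for Fam167a. Of the other genes called higher in dKO, L1cam, Fbln2, Cnnm4 and Dusp9 had log2 fold changes of 1.08 to 2.15 and were named after their values were seen.

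In Ezh2 Y726D, Oas1c, of the oligoadenylate synthetase family, was at 42.8 and 61.5 against 10.7 and 2.89 in WT (2.96, SE 0.62, adjusted p 0.0519 by limma). Ptgs1, cyclooxygenase 1, was at 64.2 and 69.4 against 4 and 21.2 (2.68, SE 0.64, adjusted p 0.0802 by limma). Fbln2, an extracellular matrix fibulin, was at 43.7 and 44.7 against 10.7 and 8.66 (2.09, SE 0.45, adjusted p 0.0598 by limma), and in dKO at 37.9 and 40.8 (1.93, adjusted p 0.0628). Both lower genes also had no overlap with WT. Synj2, a phosphoinositide phosphatase, was at 23.2 and 14.5 against 46.7 and 110 (−1.91, SE 0.47, adjusted p 0.0880 by limma), and H2afy2, a macroH2A variant, at 193 and 128 against 309 and 399 (−1.16, SE 0.24, adjusted p 0.0493 by limma), the latter named after its values were seen. For Oas1c, Ptgs1, Fbln2 and Synj2, the limma adjusted p were 0.110 to 0.151 without either dKO library and 0.189 to 0.256 without Y726D replicate 2. Without Y726D replicate 1 they were 0.125 for Ptgs1 and 0.115 for Fbln2. Without WT replicate 2 they were 0.130 for Oas1c, 0.136 for Fbln2 and 0.238 for Synj2, without WT replicate 1 0.162 for Ptgs1 and 0.104 for Fbln2, and without either Ezh2 KO library 0.141 to 0.150 for Ptgs1 and Synj2. With no filter on low values they were 0.101 to 0.139 for Ptgs1, Fbln2 and Synj2, and edgeR gave 0.101 for Ptgs1.

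Cobll1, a cordon-bleu-like protein gene, was the gene called lower in Ezh2 KO. It had 11 and 13 reads in WT and 0 and 0 in Ezh2 KO, or 14.7 and 12.5 against 0 normalised counts. It was at least 4.5-fold lower, with a floor of 3 reads per library. The limma adjusted p was 0.0346, and edgeR's quasi-likelihood test on the recovered reads gave 0.115. In dKO the gene was at 15.7 and 16.9, above both WT libraries. Without either Ezh2 KO library the limma adjusted p was 0.172 or 0.217, without either dKO library 0.135 or 0.139, and without WT replicate 1 it was 0.190. Its TSS lay 167 bp from the member chr2:65077628-65077864, and another member there was in both the HA-EZH1 and Y726D SUZ12 lists.

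**Figure D5:**
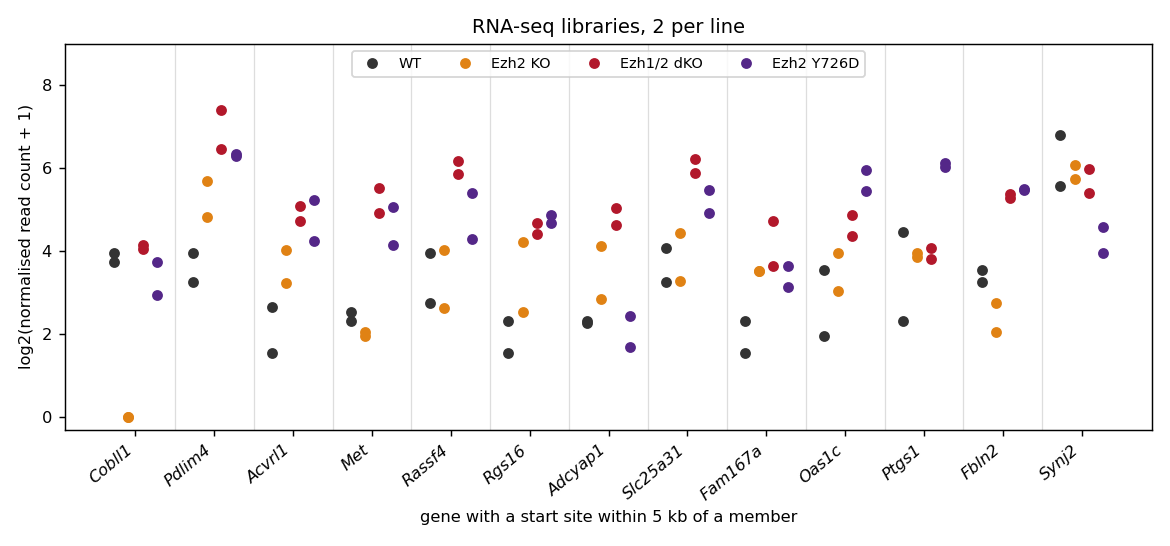
Points give log2(normalised count + 1) in each of the 2 libraries per line for 13 named genes of the members. Pdlim4, Acvrl1, Met and Rgs16 lay above both WT libraries in dKO and Y726D, and Cobll1 was at 0 in both Ezh2 KO libraries.

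H3K27ac of the same line was listed at members of few of these genes. In Y726D, 3 of the 8 higher genes (Acvrl1, Met and Rgs16) had a member acetylated in that line, as did 10 of the 149 other genes tested. In dKO the counts were 0 of 14 and 5 of 143. These are counts of genes, with no test and no WT H3K27ac list beside them.

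Of the gene lists compiled for this work, most had no gene with a member and without SUZ12. The 15 displayed loci, 36 Hox genes, 12 PRC2 genes and 53 signalling genes had 0 each. SUZ12 lay within 5 kb of a TSS of all 15 loci, all 36 Hox genes and 40 signalling genes. For the loci and Hox genes the 0 was therefore set by the exclusion of genes with SUZ12. With SUZ12 there too, a member lay within 5 kb of a TSS at 7 loci, 20 Hox, 0 PRC2, 26 signalling, 11 imprinted and 2 protocadherin genes. The imprinted list had Igf2r, a receptor for IGF2 and mannose-6-phosphate, at 366 and 962 in WT, 921 and 643 in Ezh2 KO, 1256 and 835 in dKO and 1351 and 649 in Y726D, with limma adjusted p of 0.389 to 0.864. The protocadherin list had 11 Pcdhb genes, of which 0 passed the minimum level. Pcdhb14 and Pcdhb17 are named after their values were seen. Pcdhb14 was at 0 and 0 in WT, 4.18 and 0 in Ezh2 KO, 4.95 and 10.7 in dKO and 6.24 and 6.71 in Y726D. Pcdhb17 was at 4 and 3.85 in WT, 0 and 0 in Ezh2 KO, 4.95 and 1.78 in dKO and 0 and 16.8 in Y726D. The other 9 lay between 0 and 5.33 in every library.

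A few markers of other cell types were called higher in dKO or Y726D, although no marker was a gene of the members. Single genes carried much of some sums: Thy1 was at 88.2 and 101 in dKO and 84.7 and 76.1 in Y726D. Cdx2 was at 33.0 and 440 in Y726D. The summed level of 8 pluripotency genes was 9208 to 10753 in each of the 8 libraries, and 1 of them, Dppa3, was called higher in dKO and lower in Y726D. Dppa3 was at 176 and 106 in WT, 170 and 114 in Ezh2 KO, 283 and 414 in dKO and 21.4 and 20.1 in Y726D. The 6 primitive endoderm markers summed to 20 to 35.6 in WT, 10.5 to 30 in Ezh2 KO, 145 to 170 in dKO and 55.9 to 63.3 in Y726D, with 2 of 6 called higher in dKO and Gata6 and Sox17 at 0 in some libraries. The 5 trophectoderm markers summed to 193 to 205 in WT, 316 to 382 in Ezh2 KO, 489 to 648 in dKO and 497 to 945 in Y726D, with Elf5 and Hand1 at 0 in some libraries and 2 of 5 (Krt8 and Krt18) called in both dKO and Y726D. The mesoderm markers, 4 of 5 in the table, summed to 68.4 to 74.7 in WT, 42.9 to 50.3 in Ezh2 KO, 85.7 to 126 in dKO and 97.2 to 276 in Y726D, with 0 called and T at 0 in 1 library. The 4 neural markers summed to 536 to 1326 in WT and to 524 to 1080 in the other lines, with 0 called. The 4 fibroblast markers summed to 4.81 to 12.0 in WT, 14.5 to 16.7 in Ezh2 KO, 98.9 to 117 in dKO and 86.1 to 88.3 in Y726D, with 1 of 4 (Thy1) called higher in both and Col1a1, Col1a2 and S100a4 at 0 in some libraries. Their part in the expression of the members' genes was not tested.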

How the data were processed

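ChIP-seq and ATAC-seq reads were aligned by the authors to mm9 with Bowtie, duplicates were removed, and peaks were called with MACS2. The deposited narrow lists give a −log10 p-value per peak, with a minimum of 10 here, and the broad lists reach a p-value of 0.1. The HA lists give positions. The deposited RNA-seq table gives normalised counts (signal values), which the authors made from TopHat alignments, HTSeq-count without strand and DESeq2 scaling. Of its columns, the authors' own comparisons were not used, and neither were byte-identical copies of lists. Unstranded counts do not separate a gene from an antisense partner.

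The members, gene lists and tests were chosen with earlier results of these data known. Regions overlapped at 1 bp unless stated. Quintiles of WT −log10 p and width were cut on the WT H3K27me3 peaks outside SUZ12, and those of Ezh2 KO −log10 p on the members. TSSs came from GENCODE vM1 on NCBIM37: of 18055 genes in the table, 16570 matched by symbol, 854 by synonym and 631 not. Genes of the members had a member and no SUZ12 peak within 5 kb. RNA-seq was tested with limma 3.58.1 (R 4.3.3) on log2(normalised count + 1), for genes with a mean of at least 5, with the 8 libraries in 1 fit and a Benjamini-Hochberg adjusted p under 0.1 and a log2 fold change of at least 1. Fold changes on this scale understate those of low genes. Whole reads were recovered from all table values, which served for DESeq2 1.42.0 and for edgeR 4.0.16. Named regions were the 5 members of highest Ezh2 KO −log10 p over 20 kb from SUZ12, the 3 widest and those within 10 kb of the displayed loci. Named genes were in each line up to 8 called genes of largest fold change with both libraries beyond both WT libraries. Some genes are not reported here. Regions were handled in Python 3.11.15, and the steps were tested on simulated data.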

Additional observations from a re-analysis of the deposited data

How the results depend on the processing

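The members numbered 2293 with WT and Ezh2 KO lists cut to equal length and 2256 with no WT SUZ12 peak within 1 kb. They numbered 619 with a p of at most 1e-20 in the lists that give one. In the same order, the share in R685C H3K27me3 was 74.8%, 68.7% and 85.8%, the share within 5 kb of a TSS 61.7%, 44.4% and 65.6%, and that within 5 kb of SUZ12 64.7%, 34.0% and 51.4%. HA-EZH1 held 1.06% without SUZ12 within 1 kb and 18.3% at 1e-20, and Ezh2 KO SUZ12 0 in both. Of those 619 regions, 253 lay on a SUZ12 peak of the full list. A TSS distance of 1 kb gave 26.5%. Requiring 50% of the member in H3K27ac gave 0.261% in dKO, 0.0523% in R685C and 0.758% in Y726D. In settings chosen after seeing the data, separate Ezh2 KO peaks alone gave 68.0% for R685C H3K27me3, 0 for Ezh2 KO SUZ12, 1.10% for HA-EZH1, 45.8% for a TSS and 35.0% for SUZ12 within 5 kb, and summit bases gave 56.1%, 0.0261% and 0.497% for the first 3. In the broad lists, blocks alone overlapped 96.3% of members for Ezh2 KO H3K27me2 and 0.195% for Ezh2 KO H3K27me1, with 0 in the other lines, and a p of at most 1e-5, chosen after seeing the data, gave 71.2% and 0, with 0.0486% for Y726D H3K27me1 and 0 elsewhere. ATAC-seq blocks overlapped 0.340% in WT, 0.732% in Ezh2 KO, 0.105% in dKO and 0.392% in Y726D, and at 1e-5 0.209% in Ezh2 KO and 0 in the other 3. The cause of these shifts was not tested.

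Counts of called genes of the members also moved. In Ezh2 KO they were 2 with DESeq2, 0 with edgeR and 0 with a minimum mean of 20. In dKO they were 8 with that minimum, 22 with no filter and 5 with quantile normalisation, and in Y726D 4 with no filter. With a TSS inside a member over 20 kb from SUZ12, they were 0 in Ezh2 KO, 4 in dKO and 2 in Y726D. Leaving out 1 library gave 0 to 2 in Ezh2 KO, 0 to 21 in dKO and 1 to 10 in Y726D, where a lone library was assumed to vary like the other lines. With the replicate number as a replicate block, counts were 1, 16 and 6, and 3 of 21 named gene calls were lost. The numbers were not used as pairs, since deviations from line means correlated at −0.41 to 0.29. No fold change of a named gene reversed, and 212 of their recomputed calls held while 94 were lost.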

Other observations

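On the X chromosome, 40 of 50 WT H3K27me3 peaks outside SUZ12 were members, or 80.0% (Wilson 95% interval 67.0 to 88.8%), while the autosomes ranged from 26.0% on chromosome 16 to 45.3% on chromosome 8. Of the 40, 17 lay within 1 kb of SUZ12 and 15 over 100 kb away. They included 5 members in Bcor, a Polycomb-associated BCL6 corepressor, 4 members 40651 to 141068 bp from Pja1, a ubiquitin ligase gene, and members in or near the homeobox gene Pou3f4, L1cam, a neuronal adhesion gene, and Dusp9, a MAP kinase phosphatase gene. In R685C H3K27me3, 75% of the X-linked members and 20% of the 10 X-linked lost regions were listed. The chromosome was singled out after its values were seen, and no test was made.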
